A study of Homo sapiens with 12 samples.

Results

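The 10 genes described here encode the AP-1 subunits of the JUN family (JUN, JUNB and JUND) and of the FOS family (FOS, FOSB, FOSL1 and FOSL2), together with ATF3, EGR1 and KLF6. They were taken by gene name from both deposited expression tables. All 10 were among the 13410 genes of the first table, and 9 (all but FOSB) were among the 11504 genes of the second. Members were chosen by name and no measured value entered that rule, but earlier results of these data were known when they were chosen. RNA-seq had been made from MCF-12A, a human mammary epithelial cell line not derived from a tumour, in 6 libraries labelled with the cytokine TGFbeta1 and 6 whose agent is given as control. The first set held control replicates 1 to 3 and TGFbeta1 replicates 1 to 3, and the second set held replicates 4 to 6 of each, in a table normalised separately. The labels give no dose, no duration and no statement that replicates came from separate cultures, so the spread behind each p-value is that between these libraries and may be technical. All groups share the one cell line and no genetic change is named.

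AP-1 is a dimer of basic leucine zipper proteins. JUN proteins pair with each other or with FOS proteins, whereas FOS proteins need a JUN partner to bind DNA, and the usual site is the TPA response element. JUN, JUNB, FOS, FOSB, ATF3, EGR1 and KLF6 are early response genes, whose transcription can start within minutes of a stimulus without new protein synthesis, and in TGFbeta signalling AP-1 proteins are known partners of SMAD proteins at target genes. In breast epithelium FOSL1 and JUN are best known from invasive and mesenchymal-like cells.

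JUN was the member that rose. In the first set 1 of the 8 tested members passed the test, JUN, higher with TGFbeta1 (as were 9.00% of all genes). Within each set every TGFbeta1 library held more JUN than every control. Groups also did not overlap for FOSL2 and ATF3 in the first set and for JUND, FOSL2 and EGR1 in the second, none called. How many of all genes separate in this way was not counted, so separation, here and below, is a description and no support for a change. ATF3 was lower in all 3 TGFbeta1 libraries of the first set without passing, and in the second set its mean was higher. JUNB and JUND were the most abundant members of the second set and did not pass the test there. In the first set every tested member but JUN varied more within a group than the median gene, and FOS, ATF3 and KLF6 did so in the second set too.

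The 10 genes lie on 7 chromosomes, at the following hg19 positions in the files: JUN (ENSG00000177606.6_1) at chr1:59246460-59249999 on the minus strand, JUNB (ENSG00000171223.5_1) at chr19:12902310-12904129 on the plus strand, JUND (ENSG00000130522.5_2) at chr19:18390570-18392432 on the minus strand, FOS (ENSG00000170345.9_2) at chr14:75745477-75748933 on the plus strand, and FOSB (ENSG00000125740.13_2) at chr19:45971253-45978437 on the plus strand. FOSL1 (ENSG00000175592.8_2) lies at chr11:65659520-65667997 on the minus strand, FOSL2 (ENSG00000075426.11_2) at chr2:28615669-28640179 on the plus strand, ATF3 (ENSG00000162772.16_1) at chr1:212738676-212794119 on the plus strand, EGR1 (ENSG00000120738.7_1) at chr5:137801179-137805004 on the plus strand, and KLF6 (ENSG00000067082.14_1) at chr10:3818188-3827473 on the minus strand. The transcripts listed for JUN, JUNB and JUND each have 1 exon, and that of EGR1 has 2.

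Several of these genes carry, in the bases before their start, elements that early response factors are known to bind, and the stretches below show them. Sequences are from RefSeq (GRCh38.p14), read 5′ to 3′ on the strand of the gene, with the element in capitals and positions counted from the RefSeq start. JUN is shown from -78 to -49 (chr1:58784096-58784125), JUND from -225 to -168 (chr19:18281790-18281847), KLF6 from -197 to -140 (chr10:3785349-3785406) and EGR1 from -130 to -49 (chr5:138465349-138465430). The capitals mark TGACATCA in JUN and KLF6, the cyclic AMP response element TGACGTCA in JUND and 2 CArG boxes, the site of serum response factor, in EGR1.
JUN: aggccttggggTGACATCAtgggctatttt
JUND: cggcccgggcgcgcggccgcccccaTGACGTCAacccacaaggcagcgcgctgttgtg
KLF6: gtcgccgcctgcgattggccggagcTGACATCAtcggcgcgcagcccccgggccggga
EGR1: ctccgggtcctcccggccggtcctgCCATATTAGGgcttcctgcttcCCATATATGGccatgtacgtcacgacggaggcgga

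Of the 10 members, 9 matched the promoter table, FOSL1 being the member with no entry, and 250 bases before each start were searched on both strands. TGACATCA or its reverse TGATGTCA stood before JUN, KLF6 and 1 of 2 ATF3 starts, and in 2.37% of 35116 promoters. That motif was added after the sequences had been seen. TGACGTCA stood before JUND and in 1.65% of promoters, and a CArG box before EGR1 and in 1.16%. The EGR1 element (GCGTGGGCG or GCGGGGGCG, both strands) stood before KLF6 and in 5.37% of promoters. The TPA response element (TGACTCA or TGAGTCA) was in none of these windows and in 4.2% of promoters, and the SMAD box (CAGAC or GTCTG) stood before ATF3, EGR1, FOSB and FOSL2 and in 38.0%. The listed JUN transcript starts 280 bases upstream of its RefSeq start, so the JUN element lies inside that transcript. The main KLF6 transcript starts 66 bases upstream of its RefSeq start. The EGR1 element of KLF6, at -65 to -57, therefore lies inside that transcript. Neither ATF3 window lies at the start of its main transcript. These are matches of letters and not measured binding.

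The 2 sets answered differently to the same label, which bears on every value below. Of 10 genes known to respond to TGFbeta, all 10 were called higher in the first set (median log2 change 1.86), among them FN1 (2.96, adjusted p 6.7e-05), ITGB6 (3.70, adjusted p 6.7e-05) and PMEPA1 (3.08, adjusted p 7.8e-05). That list was chosen with earlier results of these data known, so its count is no independent check. In the libraries labelled TGFbeta1 of the second set none of the 10 was called by limma (median -0.14). At an unadjusted p under 0.05 were 5 of the 10, beside 1182 of 10579 genes. FN1 changed by -0.74 in that set (adjusted p 0.226). FN1 was called lower there without TGFbeta1 replicate 6 (-0.93, adjusted p 0.0267). Over all genes, 2186 of 10454 tested (20.9%) were called in the first set, 941 higher (9.00%) and 1245 lower (11.9%). That split was 1164 higher and 855 lower at an equal sum per library, 1046 and 1008 with median of ratios scaling and 1037 and 973 with quantile normalisation. In the second set 34 of 10579 (0.321%) were called, 18 higher (0.170%) and 16 lower (0.151%). Epithelial markers were summed at 2500 to 3237 FPKM in first-set controls and 1904 to 2208 with TGFbeta1, and at 1696 to 1936 and 1796 to 1964 in the second set. KRT5 and KRT14 had the highest means. Of 8 markers, 3 were called lower in the first set (EPCAM, KRT18 and KRT5) and 0 higher. KRT8 (0.82, limma adjusted p 0.279) and TP63 (0.28, adjusted p 0.227) changed the other way without passing. In the second set 0 were called. First-set fibroblast markers summed to 1.56 to 1.84 FPKM in controls and 13.7 to 16.9 with TGFbeta1. Only 2 of the 8 were listed there. COL1A1 made up most of these sums, with means of 1.10 FPKM in controls and 12.2 with TGFbeta1. Second-set sums, of 3 listed markers, were 28.6 to 32.6 and 12 to 15.7. DCN made up most of them (28.6 ± 1.97 in controls, SD, n = 3). DCN was called lower there (-1.14, limma adjusted p 0.038), a call lost with the replicate block. First-set DCN was called higher (1.21, adjusted p 0.0142), with a control mean under 1 FPKM. Second-set COL1A1, too low for a test, went from 0.439 to 0.713 FPKM without overlap of the groups. The leukocyte and endothelial markers PTPRC, CD3E, PECAM1, VWF and CDH5 were not listed in the first table. The other markers of that list summed to 19.3 to 27.6 FPKM in the first set and 15.7 to 24.1 in the second. CD68 had the highest mean of them in each group. In the first set CD68 (-0.48, limma adjusted p 0.0306) and CD14 (-1.28, adjusted p 0.00123) were called lower, CD14 with a TGFbeta1 mean under 1 FPKM. CSF1R was called higher there, from 1.34 FPKM in controls to 3.70 with TGFbeta1 (1.01, adjusted p 0.0023). The part of these markers in the values of the members was not tested. In bulk RNA, fewer cells of a type and less RNA per cell cannot be told apart.

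In the first set 1 of 8 tested members was called higher and 0 lower, against 9.00% and 11.9% of all genes. At an unadjusted p under 0.05 were 2 of the 8, beside 3661 of 10454 genes. Of the 8 changes 7 were negative, with a median of -0.36 beside -0.06 over all genes. JUNB and FOSB stayed under the minimum mean of 1 FPKM (fragments scaled to transcript length and library total) and were not tested. Of the 9 members listed in the second set 0 were called by limma, against 0.321% of all genes. At an unadjusted p under 0.05 were 3 of the 9, beside 1182 of 10579 genes. There 7 changes were positive and 2 negative, with a median of 0.15 beside 0.00 over all genes. The plot of the 10 members by library shows these values.

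**Figure D1:**
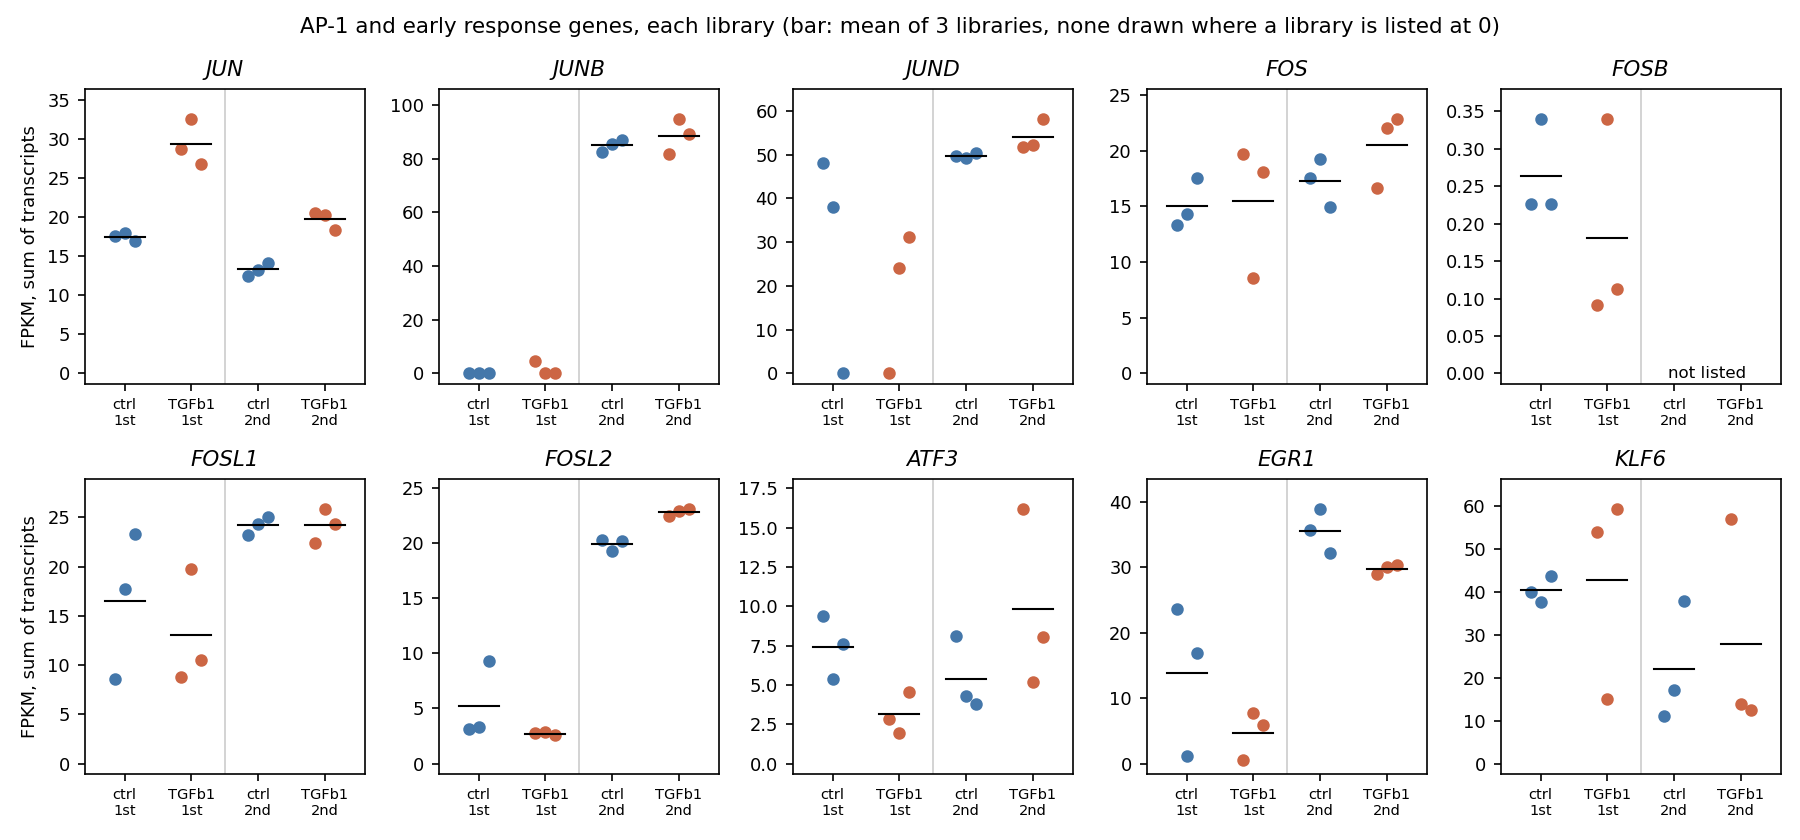
FPKM of the 10 members (vertical axes, sum of transcripts, linear, each with its own range) in controls (ctrl, blue) and libraries labelled TGFbeta1 (TGFb1, red) of the first and second sets, 1 point per library and a bar for the mean of 3 libraries, none drawn where a library is listed at 0. JUN is higher in all TGFbeta1 libraries of both sets, JUNB and JUND hold libraries at 0 in the first set, and FOSB is not listed in the second table.

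JUN encodes the founding AP-1 subunit, the one whose homodimers and heterodimers with FOS proteins activate transcription most strongly. Its first-set controls measured 17.6, 17.95 and 16.95 FPKM and its TGFbeta1 libraries 28.7, 32.5 and 26.8. All 3 TGFbeta1 libraries lay above all controls. The mean went from 17.5 ± 0.506 to 29.3 ± 2.91 FPKM (SD, n = 3), a log2 change of 0.71 (SE 0.09, 95% interval 0.49 to 0.93), and passed the test (limma, adjusted p 0.0045). The log2 change is that of FPKM + 1, here and below.

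Second-set JUN measured 12.5, 13.2 and 14.2 FPKM in controls and 20.5, 20.2 and 18.4 in the libraries labelled TGFbeta1. Again the groups did not overlap. The mean was 13.3 ± 0.841 in controls and 19.7 ± 1.14 with TGFbeta1 (SD, n = 3), a log2 change of 0.53 (95% interval 0.35 to 0.72) that did not pass after adjustment over all genes (unadjusted p 0.000432, limma adjusted p 0.0914). In the authors' deposited table the second-set change of JUN had a log2 fold change of 0.53, a fold change of 1.45, a p-value of 0.00138 and a q-value of 0.249. The change of JUN in the second set minus that in the first was -0.17 (95% interval -0.45 to 0.10, limma interaction, adjusted p 0.41), so the sizes were not separated and an equal change was not shown either.

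In a joint fit of all 12 libraries with a term for the set, added after the data had been seen, JUN was the 1 called member of 9 (log2 change 0.62, SE 0.07, 95% interval 0.47 to 0.78, limma adjusted p 0.0076). Over all genes 54 of 10571 (0.511%) were called in that fit. With the replicate number as a block that call was lost (adjusted p 0.154), as were all 54 calls over all genes. The JUN call of the first set was kept in each of 16 settings, with adjusted p from 0.00347 to 0.0246. The second-set change passed in 0 of 16 settings, with adjusted p from 0.0771 to 0.343.

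JUN was also the least variable of the tested members in the first set. Its residual SD on the log2 scale was 0.101, beside a median of 0.164 over all tested genes and 0.412 to 2.98 for the other 7 tested members. In the second set, 6 of 9 members lay under the median of 0.137, from 0.032 (FOSL2) to 0.097 (EGR1). FOS (0.208), ATF3 (0.633) and KLF6 (1.03) lay above it, the last 2 with more spread than in the first set.

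JUNB encodes a subunit that activates weakly and can dampen JUN. It was listed at 0 in all 3 controls and in TGFbeta1 replicates 2 and 3 of the first set, and at 4.54 FPKM in TGFbeta1 replicate 1. It was the most abundant second-set member, at 82.5, 85.5 and 87.1 FPKM in controls and 81.9, 94.7 and 89.2 in libraries labelled TGFbeta1. The groups overlapped. The change was 0.06 (95% interval -0.11 to 0.22, limma adjusted p 0.803).

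JUND encodes the subunit that many resting cells hold constantly. It was listed in the first set at 48.2, 37.9 and 0 FPKM in controls and 0, 24.1 and 31.2 with TGFbeta1. A library at 0 stands in each group beside libraries above 20 FPKM, and the fitted change had a 95% interval of -5.48 to 4.65 (limma adjusted p 0.908). Second-set JUND measured 49.6, 49.2 and 50.5 FPKM in controls and 51.8, 52.2 and 58.1 in libraries labelled TGFbeta1. The lowest of these lay above the highest control. The change was 0.11 (95% interval -0.04 to 0.27) and did not pass (limma adjusted p 0.558).

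The zeros of JUNB and JUND in the first set belong to a wider group of genes. Among genes with 1 listed transcript and at least 10 FPKM in the highest library, 28 of 54 with 1 exon (51.9%) were at 0 in one library and at 10 FPKM or more in another of the same group, against 11 of 891 with more exons (1.23%). JUND is one of the 28. The second-set counts were 0 of 82 and 2 of 1193 (0.168%). Of 57 genes whose listed transcripts all have 1 exon and whose second-set mean was 10 FPKM or more, 6 (10.5%), JUNB among them, had a first-set mean under 1, against 18 of 4860 other genes (0.370%). Whether the JUNB and JUND values of the first set measure their RNA was not tested. JUN, also with 1 exon, had no library at 0.

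FOS encodes the early FOS subunit, whose RNA is short-lived. First-set FOS measured 13.3, 14.3 and 17.5 FPKM in controls and 19.7, 8.56 and 18.0 with TGFbeta1. TGFbeta1 replicate 2 was below all controls and the other two above them. The change was -0.04 (95% interval -0.82 to 0.75, limma adjusted p 0.95), and its sign turned under other scalings (0.01 to 0.05) and without TGFbeta1 replicate 2 (0.32) or control replicate 3 (0.07). Second-set FOS measured 17.5, 19.2 and 15.0 FPKM in controls and 16.6, 22.1 and 22.8 in libraries labelled TGFbeta1, a change of 0.23 (95% interval -0.13 to 0.60, adjusted p 0.622) with overlapping groups.

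FOSB, the sister gene of FOS, lay between 0.0908 and 0.340 FPKM in all 6 libraries of the first set, under the minimum for a test. At that level no change can be read.

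FOSL1 encodes FRA1, a subunit without the strong activation domain of FOS that is abundant in many transformed epithelial lines. First-set FOSL1 measured 8.62, 17.7 and 23.3 FPKM in controls and 8.80, 19.8 and 10.5 with TGFbeta1. The controls alone spanned more than the difference of the group means, and the change was -0.30 (95% interval -1.39 to 0.79, limma adjusted p 0.672), from -0.68 without control replicate 1 to -0.02 without control replicate 3. Its second-set values were 23.2, 24.4 and 25.1 FPKM in controls and 22.4, 25.8 and 24.4 in libraries labelled TGFbeta1, with means of 24.2 ± 0.947 and 24.2 ± 1.73 (SD, n = 3). The 95% interval of that change, -0.18 to 0.18, bounds it on the log2 scale, and its sign turned without control replicate 5, control replicate 6 or TGFbeta1 replicate 4 (0.00 to 0.05).

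FOSL2 encodes FRA2, the other FOS relative without that domain. First-set FOSL2 measured 3.14, 3.30 and 9.29 FPKM in controls and 2.76, 2.86 and 2.55 with TGFbeta1. All TGFbeta1 libraries were below all controls, and control replicate 3 stood apart. The change was -0.61 (95% interval -1.52 to 0.30, limma adjusted p 0.297), and -0.18 without control replicate 3 (adjusted p 0.22). Second-set FOSL2 measured 20.3, 19.3 and 20.2 FPKM in controls and 22.5, 23.0 and 23.1 in libraries labelled TGFbeta1, the reverse order with no overlap. That change was 0.19 (95% interval 0.06 to 0.32, unadjusted p 0.0127, adjusted p 0.297). FPKM of FOSL2 was higher in the second table, but the tables were normalised separately. The difference of the changes was 0.80 (limma interaction, adjusted p 0.231), and without control replicate 3 it was 0.37 and passed (adjusted p 0.0386).

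Summed over the family, FPKM being per length, the JUN genes came to 145, 148 and 152 FPKM in second-set controls and 154, 167 and 166 in libraries labelled TGFbeta1. JUNB held most of it, 57.1% to 57.8% in controls and 53.1% to 56.7% in libraries labelled TGFbeta1. JUN held 8.64%, 8.93% and 9.34% of the sum in controls and 13.3%, 12.1% and 11.1% in libraries labelled TGFbeta1, with no overlap. JUND held 33.3% to 34.3% and then 31.2% to 35.1%. In the first set the sum cannot be read in this way, because JUNB is listed at 0 in 5 of the 6 libraries and JUND in 2.

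The FOS genes summed to 61.0, 62.8 and 60.2 FPKM in second-set controls and 61.4, 70.8 and 70.3 in libraries labelled TGFbeta1. FOS, FOSL1 and FOSL2 held comparable shares, with FOSL1 the largest in each control (38.0%, 38.7% and 41.6%). In the first set the sums were 25.3, 35.7 and 50.3 FPKM in controls and 31.3, 31.6 and 31.2 with TGFbeta1, so controls differed by more than the groups did. FOSL2 held 9.26% to 18.5% of first-set control sums and 8.19% to 9.07% with TGFbeta1. The plot of family sums shows both pools.

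**Figure D2:**
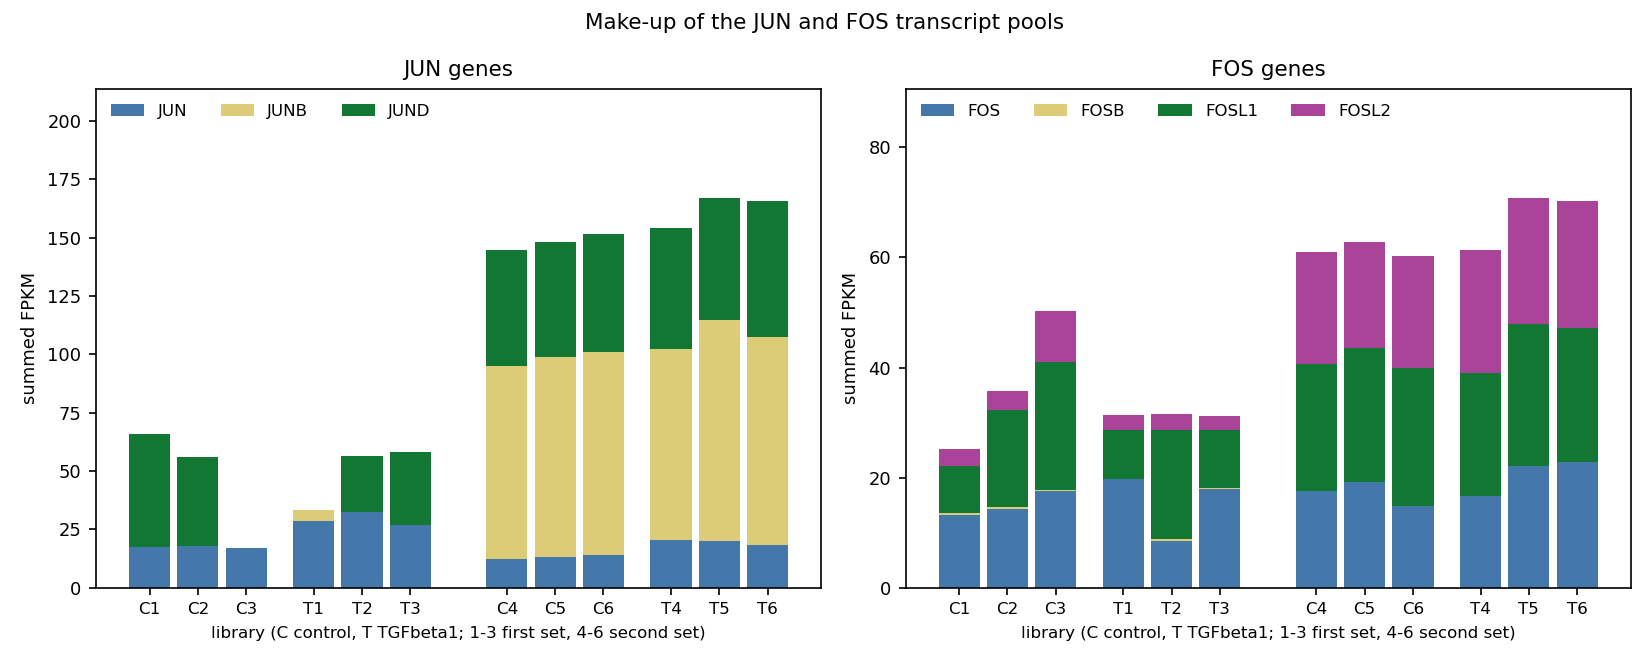
Summed FPKM of the JUN genes (left) and FOS genes (right) in each of the 12 libraries (C control, T TGFbeta1), stacked by gene, linear axes from 0. JUNB and JUND make up most of the second-set JUN sum (145 to 167 FPKM), JUNB is listed at 0 in 5 of 6 first-set libraries, and the FOS sum is spread over FOS, FOSL1 and FOSL2.

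ATF3 encodes a stress-induced basic leucine zipper protein that pairs with JUN proteins and represses many genes. First-set ATF3 measured 9.36, 5.34 and 7.61 FPKM in controls and 2.82, 1.95 and 4.57 with TGFbeta1. Every TGFbeta1 library was below every control. The mean was 7.44 ± 2.02 in controls and 3.12 ± 1.33 with TGFbeta1 (SD, n = 3), a log2 change of -1.06 (95% interval -1.78 to -0.34) just short of the threshold (unadjusted p 0.0119, limma adjusted p 0.0546). Without TGFbeta1 replicate 3 it passed (-1.30, adjusted p 0.0381).

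In the second set ATF3 measured 8.11, 4.28 and 3.80 FPKM in controls and 16.2, 5.20 and 8.02 in libraries labelled TGFbeta1. The groups overlapped, and TGFbeta1 replicate 4 was the highest of the 6 libraries. The change was 0.69 (95% interval -0.37 to 1.74, limma adjusted p 0.615), 0.29 without TGFbeta1 replicate 4 and 1.02 without TGFbeta1 replicate 5. The second-set change minus the first was 1.74 (95% interval 0.50 to 2.99, unadjusted p 0.0109) and did not pass (limma interaction, adjusted p 0.0687). ATF3 was the 1 of 9 members at an unadjusted p under 0.05 in that test, beside 2855 of 10571 genes. After adjustment 0 members and 13.6% of all genes were called. The difference passed without control replicate 4 (2.03, adjusted p 0.048), without TGFbeta1 replicate 5 (2.08, adjusted p 0.0347) and with the replicate block (adjusted p 0.0192).

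The transcript ENST00000341491 carried most of ATF3, at 9.13, 4.16 and 7.57 FPKM in first-set controls and 2.14, 1.4 and 4.52 with TGFbeta1. It was at 7.88, 2.55 and 2.10 in second-set controls and 15.9, 4.67 and 6.81 in libraries labelled TGFbeta1. A second transcript, ENST00000613104, held 1.5 and 1.45 FPKM in control replicates 5 and 6 and at most 0.232 in the libraries labelled TGFbeta1, beside 0.0483 in control replicate 4. On the transcript level ENST00000341491 changed by -1.14 in the first set (limma adjusted p 0.194) and 0.98 in the second (adjusted p 0.817), neither passing. Of all member transcripts, the single JUN transcript of the first set was called (log2 change 0.71, limma adjusted p 0.0237), where 5.54% of all transcripts were called. None of the second-set member transcripts was called by limma (0.221% of all transcripts), JUN having an adjusted p of 0.202 and KLF6 ENST00000542957 an unadjusted p of 0.0241.

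EGR1 encodes a zinc finger activator that growth factors and serum induce through CArG boxes. First-set EGR1 measured 23.6, 1.09 and 16.9 FPKM in controls and 0.543, 7.74 and 5.95 with TGFbeta1. Control replicate 2 and TGFbeta1 replicate 1 stood far below the rest of their groups. The change of -1.10 had a 95% interval from -3.94 to 1.74 (limma adjusted p 0.544), and it ran from -0.32 without TGFbeta1 replicate 1 to -2.21 without control replicate 2. Second-set EGR1 measured 35.7, 38.9 and 32.2 FPKM in controls and 29.1, 30.1 and 30.3 in libraries labelled TGFbeta1, with every one of these below every control. The change was -0.24 (95% interval -0.44 to -0.05, unadjusted p 0.0228, limma adjusted p 0.359) and did not pass.

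KLF6 encodes a zinc finger factor that binds GC boxes and is known for its induction in tissue injury. First-set KLF6 measured 39.95, 37.7 and 43.7 FPKM in controls and 54.0, 15.1 and 59.3 with TGFbeta1. TGFbeta1 replicate 2 was far below all controls and the other two were above them. The change was -0.13 (95% interval -1.42 to 1.15, limma adjusted p 0.88), and without TGFbeta1 replicate 2 it was 0.48 and passed (adjusted p 0.0457). Second-set KLF6 measured 11, 17.1 and 37.9 FPKM in controls and 57.1, 13.8 and 12.5 in libraries labelled TGFbeta1, a change of 0.15 (95% interval -1.56 to 1.86, adjusted p 0.961). In each group 1 library was high and 2 were low, and the sign turned without control replicate 4 (-0.23) or TGFbeta1 replicate 4 (-0.53).

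The transcript of 4 exons, ENST00000497571, held most of KLF6 in the libraries with the highest KLF6. It measured 36.9, 33.5 and 38.4 FPKM in first-set controls and 49.6, 12.1 and 55.0 with TGFbeta1. It measured 5.50, 6.16 and 31.4 in second-set controls and 42.8, 6.57 and 5.40 in libraries labelled TGFbeta1. The transcript of 3 exons, ENST00000542957, was much steadier, at 2.36, 3.51 and 4.06 in first-set controls, 2.95, 2.12 and 3.54 with TGFbeta1, 3.76, 3.19 and 4.13 in second-set controls and 5.03, 4.86 and 5.40 in libraries labelled TGFbeta1. The last 3 values were above all second-set controls (log2 change 0.38, limma adjusted p 0.651). In the authors' deposited table that transcript had a log2 fold change of 0.38, a p-value of 0.015 and a q-value of 0.564.

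The remaining transcript, ENST00000469435, lay between 0.688 and 1.404 FPKM in the first set. It measured 1.77, 7.73 and 2.34 in second-set controls and 9.26, 2.37 and 1.69 in libraries labelled TGFbeta1, and in control replicate 5 it exceeded the transcript of 4 exons.

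The transcripts of 4 and of 3 exons differ by the coding exon 3 of ENST00000497571, which is absent from ENST00000542957 and holds part of the zinc finger region. Its 124 bases lie at chr10:3780106-3780229 (GRCh38, minus strand) and are shown because reads in this stretch tell the transcripts apart.
KLF6 exon 3: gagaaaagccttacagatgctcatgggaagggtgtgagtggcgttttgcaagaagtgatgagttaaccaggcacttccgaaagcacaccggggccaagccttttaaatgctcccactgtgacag

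FOSL1 also had several transcripts. ENST00000312562 measured 6.03, 13.7 and 18.3 FPKM in first-set controls and 7.41, 17.2 and 8.65 with TGFbeta1. It measured 14.4, 15.8 and 10.6 in second-set controls and 15.4, 17.9 and 13.6 in libraries labelled TGFbeta1. The second-set sums of FOSL1 were steadier than its parts, since ENST00000531493 and ENST00000532401 were highest in control replicate 6 (7.36 and 5.92 FPKM), where ENST00000312562 was lowest. Division of reads among transcripts by the authors' tool was not tested here. The plot of transcripts shows the 3 genes.

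**Figure D3:**
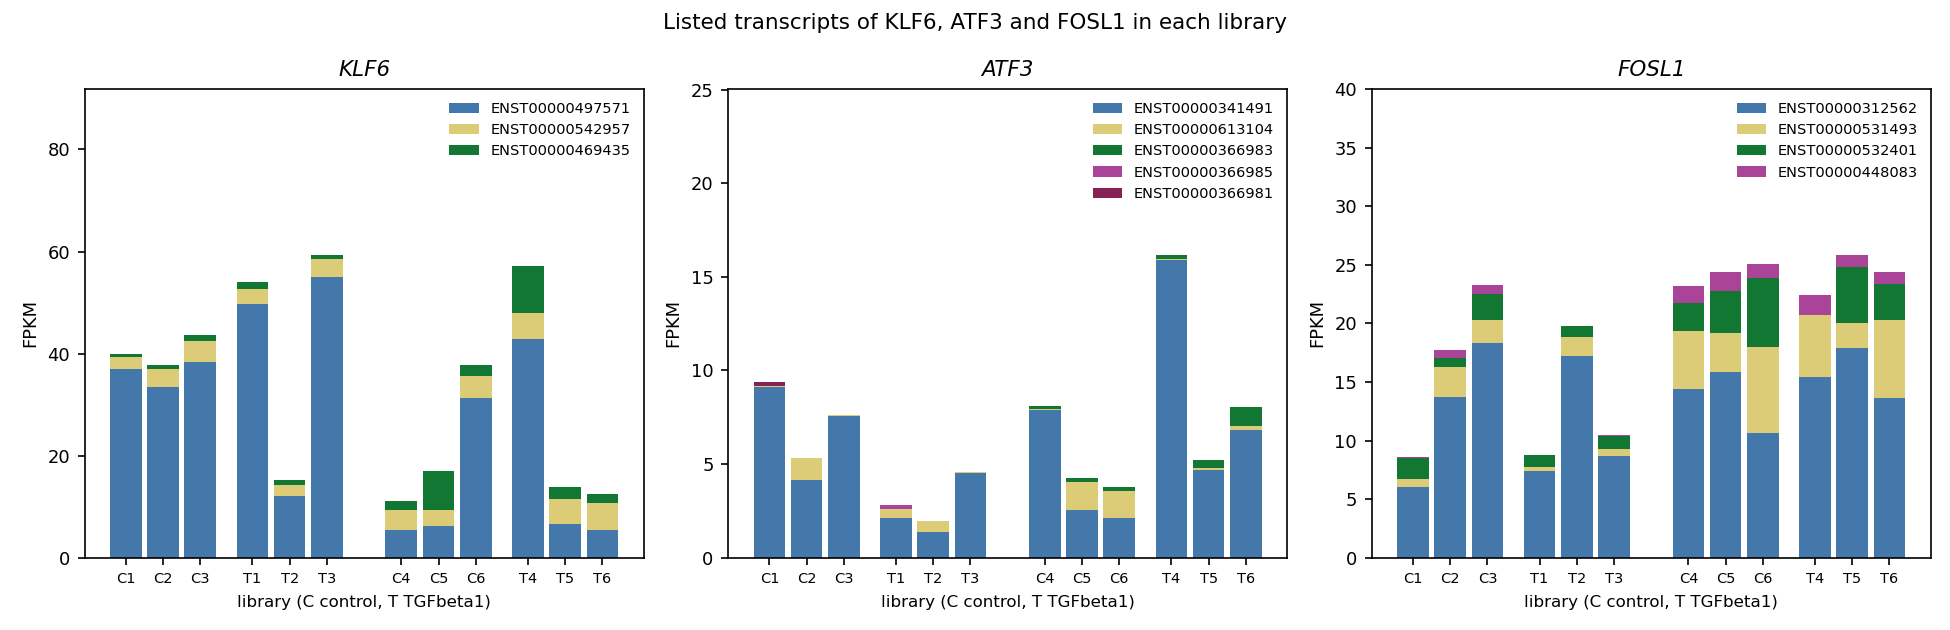
FPKM of each listed transcript of KLF6, ATF3 and FOSL1, stacked in each of the 12 libraries (C control, T TGFbeta1, 1 to 3 first set and 4 to 6 second set), linear axes from 0. For KLF6, ENST00000497571 spans 5.40 to 55.0 FPKM, ENST00000542957 2.12 to 5.40 and ENST00000469435 0.688 to 9.26.

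Ordered by level in second-set controls, members ran from JUNB (85.0 FPKM, above 95% of the 11504 genes) over JUND (49.8), EGR1 (35.6), FOSL1 (24.2), KLF6 (22.0), FOSL2 (19.9), FOS (17.2) and JUN (13.3, above 64.9%) to ATF3 (5.40, above 38.3%). KLF6 could not be placed against EGR1, FOSL1, FOSL2, FOS or JUN, since its control libraries spanned 11 to 37.9 FPKM. No other pair of neighbours in that order overlapped in their control libraries. In libraries labelled TGFbeta1 JUN stood above 75.3% of genes and ATF3 above 56.2%. First-set controls held KLF6 at 40.5 ± 3.04 FPKM (SD, n = 3), and JUND was above it in control replicates 1 and 2 and listed at 0 in control replicate 3. JUN stood above 75.0% of 13410 genes and, with TGFbeta1, above 85.5%. The plot of changes sets the members of both sets side by side.

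**Figure D4:**
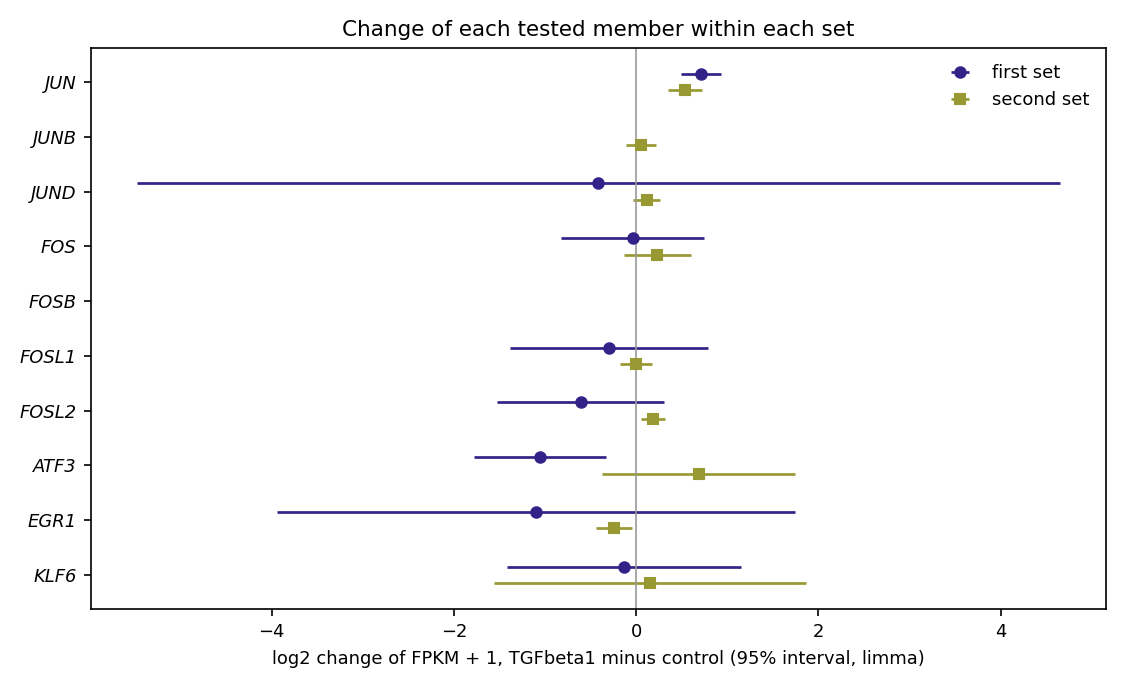
Log2 change of FPKM + 1, TGFbeta1 minus control (horizontal axis), with its 95% interval from limma for each tested member in the first set (circles) and second set (squares). JUN lies above 0 in both sets (0.71 and 0.53), and ATF3 has first-set and second-set changes of -1.06 and 0.69.

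Genes outside the membership that work with AP-1 were read from lists of general knowledge. All these lists were chosen with earlier results of these data known, so their counts are descriptions. Their counts at an unadjusted p under 0.05 stand beside 3661 of 10454 genes in the first set and 1182 of 10579 in the second. Of 20 tested AP-1 and basic leucine zipper partners, 1 rose and 3 fell in the first set (median -0.19 beside -0.06 over all genes), near the 9.00% and 11.9% of all genes. Among those that fell, with a mean over 1 FPKM in both groups, were DDIT3, the stress factor CHOP (log2 change -1.50, adjusted p 0.000506), and CEBPD (-1.29, adjusted p 0.00035). The 1 that rose was CEBPB (0.27, limma adjusted p 0.0383), named after its value was seen, and that call was lost with the replicate block, with limma without trend, and when any first-set library but control replicate 2 was left out. Of 20 tested in the second set 0 were called by limma (4 at an unadjusted p under 0.05, median 0.06).

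Of 21 other immediate early genes 2 rose, near the 9.00% of all genes, and 0 fell, beside 11.9%, in the first set (8 at an unadjusted p under 0.05, median 0.07). They were CTGF, a matricellular growth factor (1.65, adjusted p 0.0045), and ZFP36L1, which promotes decay of AU-rich RNAs (1.24, adjusted p 0.00784). Only transcripts listed in both tables gave 0.47 for ZFP36L1 (adjusted p 0.273). Without control replicate 3, 4 rose and 1 fell. Several of the 21 varied widely within a first-set group, which limits what could be called. Named after their values were seen, IER3 ran from 2.68 to 170.7 FPKM with TGFbeta1 and BTG2 from 0.495 to 34.5 in controls. IER5L was listed at 0 in 2 first-set libraries. Of 22 tested in the second set 1 was called, CTGF, and it was lower, at 45.95 ± 2.99 FPKM in controls and 29.8 ± 1.46 in libraries labelled TGFbeta1 (SD, n = 3; -0.61, limma adjusted p 0.0491). This second-set call was lost when any of the 6 libraries was left out (adjusted p from 0.11 to 0.201) and passed in 4 of 16 settings.

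Upstream, among 24 kinases and ternary complex factors, 2 rose and 3 fell in the first set (median 0.01), near the 9.00% and 11.9% of all genes. ELK3, a ternary complex factor, rose (1.04, adjusted p 0.000698), and SRF, the CArG box factor (-0.62, adjusted p 0.00379), and MAP3K5, the stress kinase ASK1 (-0.97, adjusted p 0.00404), fell. Leaving out control replicate 1, TGFbeta1 replicate 2 or TGFbeta1 replicate 3 left 1 that rose. Of 12 tested genes of the KLF family with SP1, 0 rose and KLF4, a factor of epithelial differentiation, fell (-0.54, adjusted p 0.0268), a call lost at an equal sum per library, with the replicate block, and without control replicate 1, control replicate 2 or any TGFbeta1 replicate. Of 8 corepressors and cofactors 0 rose and COPS5, also called JAB1, fell (-0.42, adjusted p 0.0393), lost with median of ratios scaling, an equal sum, the replicate block, and without control replicate 1, control replicate 3 or any TGFbeta1 replicate. Neither count of 1 is far from the 11.9% of all genes called lower. Of 7 genes of AP-1 protein turnover 0 were called by limma (0 at an unadjusted p under 0.05). In the second set 0 genes of these 4 lists were called by limma, with 1 of 23, 2 of 13, 0 of 7 and 2 of 8 at an unadjusted p under 0.05.

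Of 12 genes of the integrated stress response, in which ATF3 is induced through ATF4, 0 rose and 3 fell in the first set, beside 9.00% and 11.9% of all genes (median -0.58). DDIT3 is again among them, with DDIT4 (-0.65, adjusted p 0.00167) and SESN2 (-0.76, adjusted p 0.019), both restrainers of mTOR signalling. SESN2 lost its call without control replicate 1, control replicate 2, TGFbeta1 replicate 2 or TGFbeta1 replicate 3. The count that fell was 6 without control replicate 3 and 5 without TGFbeta1 replicate 1. Of 10 tested in the second set 0 were called by limma (1 at an unadjusted p under 0.05, median 0.11).

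Of 25 tested genes with described AP-1 elements, 16 rose and 2 fell in the first set, where 9.00% and 11.9% of all genes did. With 1 library left out 13 to 14 rose and 1 to 2 fell, and with the replicate block 12 rose and 1 fell. Of the 16, 4 (HMOX1, IL11, IL6 and MMP9) had a control mean under 1 FPKM. They passed the filter only through the group where they were high, so their direction tells nothing. That leaves 12, in a list chosen with earlier results of these data known, and a part of AP-1 in them was not tested. IL1B, an inflammatory cytokine, measured 12.4 ± 0.0543 FPKM in controls and 73.3 ± 2.57 with TGFbeta1 (SD, n = 3; log2 change 2.47, limma adjusted p 4.8e-05). LAMB3, a laminin chain, went from 90.4 ± 4.58 to 376.7 ± 5.35 (2.05, adjusted p 5.4e-05), and PLAU, PLAUR, MMP14, CXCL8 and PTHLH, named after their values were seen, also rose (1.53 to 3.23). SPRR1B, a cornified envelope protein, fell from 177.6 ± 11.3 to 20.8 ± 1.37 FPKM (-3.04, adjusted p 4.8e-05), and EZR fell by 0.47 on the log2 scale. Several of these are also known TGFbeta targets through SMAD proteins, and no binding was measured. In the second set 1 of 24 rose and 1 fell (9 at an unadjusted p under 0.05, median 0.19). IL1B went from 21.1 ± 0.567 to 44.9 ± 6.81 FPKM (1.04, adjusted p 0.0479) and TIMP1, a metalloproteinase inhibitor, from 113.1 ± 7.88 to 76.0 ± 2.45 (-0.57, adjusted p 0.0491). The IL1B call was lost without any 1 library other than TGFbeta1 replicate 6 (adjusted p from 0.132 to 0.182), and the TIMP1 call without any 1 library (adjusted p from 0.0759 to 0.193). They passed in 7 and 3 of 16 settings. The plot of these genes shows both sets.

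**Figure D5:**
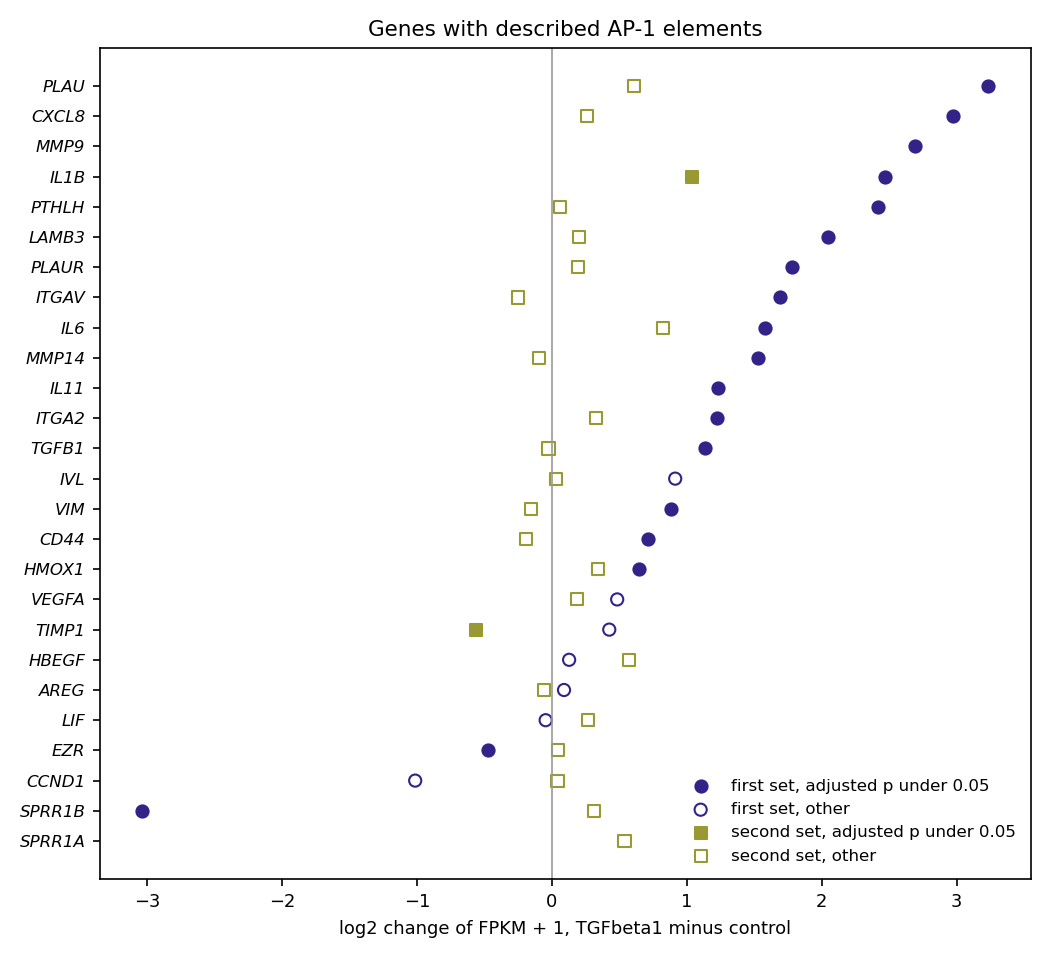
Log2 change of FPKM + 1, TGFbeta1 minus control (horizontal axis), of each tested gene with a described AP-1 element in the first set (circles) and second set (squares), filled where the limma adjusted p is under 0.05. In the first set 16 filled circles lie above 0 and 2 below, and in the second set IL1B (1.04) and TIMP1 (-0.57) are filled. Of the 16, HMOX1, IL11, IL6 and MMP9 had a control mean under 1 FPKM.

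The 3 genes whose pattern was most like that of JUN were CIT (Pearson r 0.951), OPTN (0.944) and IL1B (0.943), by log2(FPKM + 1) centred on the mean of each set over the 12 libraries and 10005 genes. The 12 points share 2 tables and 2 agents and are not independent. OPTN changed by 0.99 in the first set (limma adjusted p 0.00139) and 0.39 in the second (adjusted p 0.124). CIT changed by 0.22 and 0.15 and passed in neither (adjusted p 0.0742 and 0.513).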

How the data were processed

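RNA of 12 MCF-12A libraries was extracted with Trizol and made into Illumina libraries, per the labels. FastQC, cutadapt, HISAT2 2.0.4, StringTie 1.2.3 and hg19 are named per the submitters' processing notes, and what settings, strandedness and gene annotation went with them is not given in the sources used here. FPKM values per protein-coding transcript were deposited in 2 separately normalised tables (44112 and 29204 transcripts, 27453 in both). The header of the first table gives no unit, so FPKM is inferred there. For the second, the authors' group means are averages of log2(FPKM + 1) over the library columns. The authors also deposited, for the second set, a log2 fold change, a linear fold change, and a p-value and q-value per transcript. These are printed only where that table is named. Because FPKM is relative to a library total, a few abundant genes can shift the rest. Depth and counting error are unknown, no count table being used. Summed FPKM ran from 291801.6 to 318269.5 (first set) and from 338968.0 to 358432.6 (second set), and the lowest mean of a listed transcript was 0.025 and 0.25.

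Transcripts were summed per gene, 193 symbols of the first set being renamed to the second's. Genes with a mean of at least 1 FPKM were tested with limma 3.58.1 (R 4.3.3, empirical Bayes with a mean-variance trend, two-sided) on log2(FPKM + 1), a scale that understates changes of low genes, and called at a Benjamini-Hochberg adjusted p under 0.05 over all genes. The procedure was tested on simulated data. Tables and figures used Python 3.11.15, numpy 2.4.6, pandas 2.3.3 and matplotlib 3.10.9. The members, lists and tests were chosen with earlier results of these data known. Genes named are all members, the 3 smallest first-set p and 2 smallest second-set p of each list, and the 3 most like each called member, and some of these are not reported here. Tried as alternatives were: no filter, a 5 FPKM filter, a 0.1 pseudocount, 3 scalings, 2 variance settings, leaving out each library, a replicate block, and shared transcripts only. The fit over both sets was added after seeing the data. Where 1 library was left out, the spread was pooled over groups. Reads shared between similar transcripts, or with antisense genes, can be assigned to either.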

Additional observations from a re-analysis of the deposited data

Results flagged for a closer look

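The change with TGFbeta1 differed between the sets, by limma's interaction test, for 0 of the 9 tested members, beside 1436 of 10571 genes (13.6%). It also differed for 15 of 18 named list genes called in at least 1 set. Those 18 were picked by their small p-values within a set. Their count therefore cannot be set against that of the members or of all genes. Values are the second-set log2 change minus that of the first. It was negative for the response genes FN1 (-3.70), ITGB6 (-3.68) and PMEPA1 (-3.51), for CTGF (-2.26) and ZFP36L1 (-1.20), and for IL1B (-1.43), LAMB3 (-1.84) and TIMP1 (-0.99). It was positive for SPRR1B (3.35), CEBPD (1.46), DDIT3 (1.66), DDIT4 (0.74), MAP3K5 (0.77), SRF (0.65) and SESN2 (0.69). Adjusted p ran from 1.22e-07 (SPRR1B) to 0.0387 (SESN2). The SESN2 difference passed in 10 of 22 settings, and those of MAP3K5, TIMP1 and ZFP36L1 in 21 of 22. For COPS5, ELK3 and KLF4 it did not pass. The labels name no difference between the sets other than the replicate number, and the cause was not tested. Each library was left out in turn, but no test for single libraries that stand apart was run on the groups of 3.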

How the results depend on the processing

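JUN was called in the first set in all 16 settings. The count of called members in the first set was 1, and 1 to 2 with 1 library left out: KLF6 joined without TGFbeta1 replicate 2, and ATF3 without TGFbeta1 replicate 3. In the second set it was 0 in each setting. Members with a different change in the sets numbered 0, 0 to 1 with 1 library left out (FOSL2 without control replicate 3, ATF3 without control replicate 4 or TGFbeta1 replicate 5), and 1 with the replicate block (ATF3, 1.74, adjusted p 0.0192). Over both sets the count went from 1 to 0 with the replicate block, JUN having an adjusted p of 0.154. Same-numbered libraries correlated at only 0.007 to 0.046 in their deviations, and the numbers were not taken as pairs. Yet 10 of 12 libraries correlated best with their own number, so the main fits may ignore a pairing. With the block, calls over all genes went from 2186 to 1211 in the first set and from 34 to 0 in the second. Signs turned for FOS in the first set with median of ratios scaling (0.012), an equal sum (0.048) and quantile normalisation (0.023), with a range of -0.24 to 0.32 with 1 library left out. With 1 library left out, the ranges that crossed 0 were also -2.23 to 1.195 for JUND and -0.47 to 0.48 for KLF6 in the first set, and -0.048 to 0.051 for FOSL1 and -0.53 to 0.62 for KLF6 in the second. The cause was not tested. FOSL2 was not tested in the first set at a minimum of 5 FPKM. Depth was unknown, and 3 libraries a group limit what could be called.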
